A study of Mus musculus with 2 samples.

Results

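The genes of glycolysis and of the response to low oxygen listed next were followed across the cell classes that had entered scaffolds placed in a mouse skull defect. They were chosen by symbol, and all 30 were found among the 32245 gene symbols of the deposited matrices. The members are 3 transporters (Slc2a1, Slc2a3, Slc16a3), 3 hexokinases (Hk1, Hk2, Hk3), 7 genes of upper glycolysis (Gpi1, Pfkl, Pfkm, Pfkp, Aldoa, Aldoc, Tpi1), 7 of lower glycolysis and lactate formation (Gapdh, Pgk1, Pgam1, Eno1, Eno2, Pkm, Ldha), 3 flux regulators (Pfkfb3, Pfkfb4, Pdk1) and 7 genes of the hypoxia response outside glycolysis (Hif1a, Egln3, Bnip3, Adm, Ndrg1, Ankrd37, P4ha1). The rule uses gene symbols and no measured value. The series title poses its question as one of scaffold composition and of the exchange between immune and stem cells. Both groups were female Balb/c mice, 6 weeks old, with a circular skull defect 3.5 mm across. The defect held a scaffold without cells, made of Gel100 in the first group and of Gel50_CS50 in the second. The labels do not spell out the scaffold names. Scaffolds were taken out at week 1, the cells of 5 mice per group were pooled, and sorted viable cells gave 1 droplet 3' library per group. No sample came from a mouse without a scaffold. Each difference below is therefore one between 2 libraries, with no replicate check and no test, and every interval is a 95% interval of counting error only.

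Glycolysis splits glucose into pyruvate in the cytosol and yields ATP without oxygen, and lactate dehydrogenase turns pyruvate into lactate, which monocarboxylate transporters carry out of the cell. The hypoxia-inducible factor HIF-1, whose oxygen-sensitive subunit is encoded by Hif1a, binds promoters and enhancers of most of these enzymes. Its protein is marked for destruction by prolyl hydroxylases while oxygen is present, so the Hif1a transcript alone does not report its activity. Inflammatory macrophages and neutrophils are known to rely heavily on glycolysis, and the centre of a fresh bone defect has few vessels.

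The libraries kept 7601 Gel100 and 7206 Gel50_CS50 cells, with medians of 12707 and 16509.5 unique molecular identifiers (UMIs, each a counted mRNA molecule) per cell. Of the Gel100 cells 11.3% had under 1000 UMIs, and of the Gel50_CS50 cells 1.42%. The matrices shared 24 barcode sequences. Cells were clustered with the members left out, and clusters were named from marker genes, so a class name means cells like that type. In each class the markers were present, from 3 of 7 gamma-delta T cell markers to 14 of 14 macrophage markers detected in at least 10% of the cells. A gate on each cell's own markers put 99.7% and 99.8% of the macrophage and monocyte class in the same class, but only 33.4% and 34.8% of the conventional dendritic cells. Levels are counts per 1000000 counts of a class (CPM). These 3' counts are one tag per molecule and were not divided by gene length. A member was measured in a class when its mean level was at least 20 CPM, and it was called higher or lower when it passed 1.5-fold.

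Together the members took up more of the mRNA in macrophages and monocytes than in the other 6 classes of either library. Their summed level there was 6668 CPM in Gel100 and 7393 CPM in Gel50_CS50. It was 5475 and 5167 CPM in stromal cells, 5175 and 4882 CPM in conventional dendritic cells, and 4673 and 3487 CPM in T and NK cells. Neutrophils had 4121 and 4237 CPM, endothelial cells 3077 and 2543 CPM, and plasmacytoid dendritic cells 2157 and 1805 CPM. For 22 of the 30 members the same class had the highest level in both libraries. In 14 of these, the interval of that class was clear of every other class in both libraries. The same counts were not made over all genes, so they do not set the members apart from genes in general. The 14 are named here as a description. These 14 were 7 in macrophages and monocytes (Hk2, Aldoa, Tpi1, Gapdh, Pgk1, Pgam1, Pkm), 5 in neutrophils (Slc2a1, Slc2a3, Hk3, Slc16a3, Pfkfb4), Pfkp in conventional dendritic cells and P4ha1 in stromal cells.

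**Figure D1:**
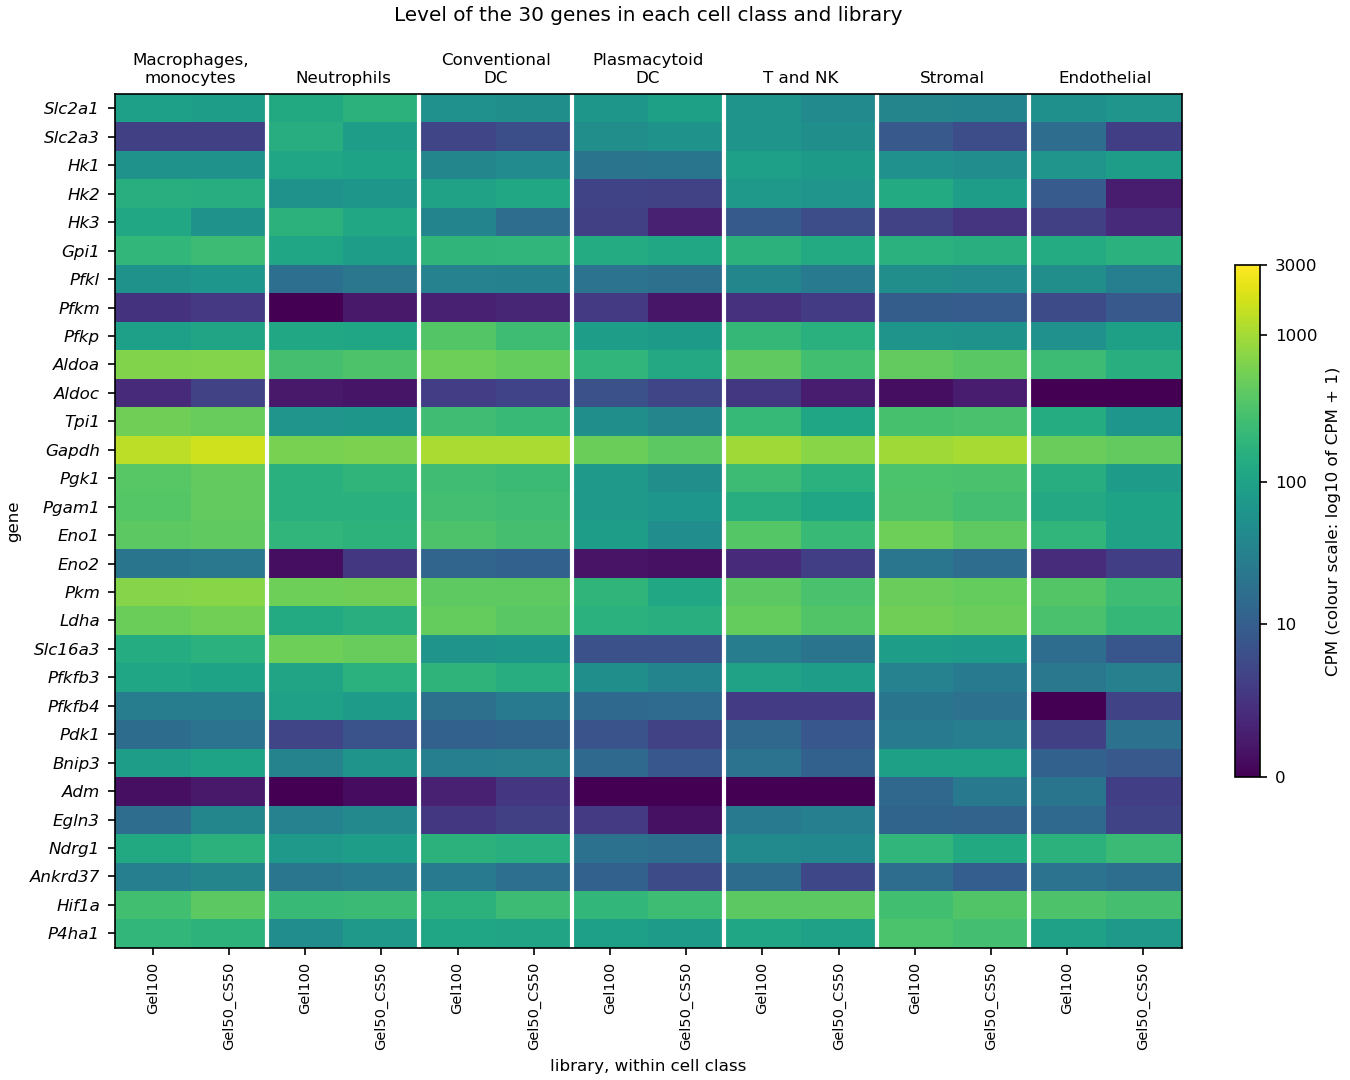
Level of each of the 30 members (rows) in 7 cell classes of both libraries (columns). The colour is log10(CPM + 1) of counts summed over the cells of a class. Gapdh (1341 and 1658 CPM in macrophages and monocytes) is far brighter than Eno2 (21.1 and 23.8 CPM), and Slc16a3 is highest in neutrophils.

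The transporters divided by class. Slc16a3 encodes the lactate exporter MCT4 and reached 517 CPM in Gel100 and 472 CPM in Gel50_CS50 neutrophils, which was 3.63-fold and 2.86-fold the next class. Macrophages and monocytes had 142 and 165 CPM, and plasmacytoid dendritic cells had 6.4 and 6.39 CPM. The glucose importer Slc2a1 was also highest in neutrophils, at 127.5 and 168.7 CPM, followed in Gel100 by macrophages and monocytes (89.8 and 89.0 CPM). Slc2a3, which encodes the high-affinity glucose importer GLUT3, was near the floor in macrophages and monocytes at 3.62 and 3.57 CPM. It made up 50.5% and 55.1% of the Slc2a1 and Slc2a3 counts in T and NK cells, but Slc2a1 made up 96.1% of them in macrophages and monocytes of both libraries.

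Hexokinase is the enzyme that traps glucose in the cell. The share of each of its genes in the hexokinase counts also differed between classes and, in some classes, between the libraries. In macrophages and monocytes Hk2 held 45.3% of the hexokinase counts in Gel100 and 55.4% in Gel50_CS50, and Hk3 held 37.1% and 22.9%. In neutrophils Hk3 held 49.0% and 40.6%. In T and NK cells the counts were mainly from Hk1 (51.9% and 52.7%), with 5.0% and 3.8% from Hk3. In stromal cells they were mainly from Hk2 (69.4% and 62.2%). The 6-phosphofructokinase counts came chiefly from Pfkp, the platelet-type isozyme, in T and NK cells (83.5% and 84.9%) and conventional dendritic cells (91.0% and 88.0%). In macrophages and monocytes the liver-type isozyme Pfkl added 39.1% and 37.6%. The muscle-type Pfkm stayed under 10 CPM in every class compared.

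**Figure D2:**
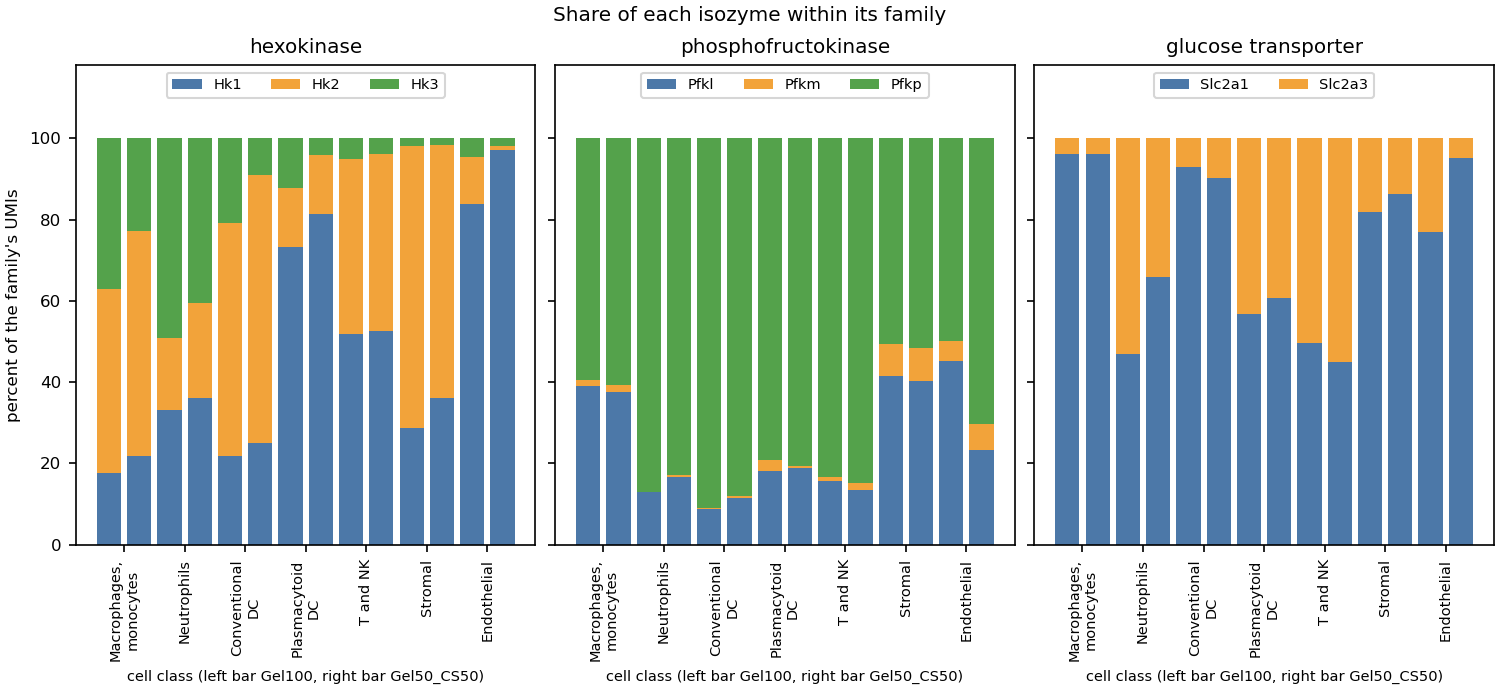
Share of each isozyme or transporter in the summed counts of its family (percent of hexokinase, 6-phosphofructokinase or glucose transporter counts), by cell class and library. The share of Hk3 in macrophages and monocytes is 37.1% in Gel100 and 22.9% in Gel50_CS50.

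In macrophages and monocytes, Egln3 and Hif1a were higher and Hk3 was lower in Gel50_CS50. Egln3 encodes the prolyl hydroxylase PHD3, itself a HIF target, and its level was 16.6 CPM in Gel100 and 38.4 CPM in Gel50_CS50 (log2 ratio 1.21, 1.11 to 1.32). Hif1a was at 264.5 and 402.8 CPM (0.61, 0.58 to 0.63). Hk3 was at 121.8 and 60.7 CPM (-1.01, -1.06 to -0.95). Among the 25 measured members, 2 were higher, beside 2.70% of all 6105 measured genes, and 1 was lower, beside 4.75%. The other 22 lay within 1.5-fold, from Tpi1, the triose phosphate isomerase (521 and 464 CPM), to Gapdh, the most abundant member (1341 and 1658 CPM). The median log2 ratio was 0.13 for the measured members and -0.01 for all measured genes. Of the 15 measured genes on a list of other HIF targets, Rora alone was higher (20.2 and 34.0 CPM). None of 13 tricarboxylic acid cycle genes and none of 16 nuclear genes of oxidative phosphorylation passed 1.5-fold.

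The differences of Hif1a, Hk3 and Egln3 were also read within the macrophage and monocyte clusters. Hif1a was higher in Gel50_CS50 in 8 of 8 clusters, from 0.08 in cluster 12 to 0.81 in cluster 3 on the log2 scale, and 7 of the intervals lay above 0. Hk3 was lower in 7 of 8 clusters, down to -1.33 in cluster 13, and at 0.29 in cluster 12. Egln3 was measured in 3 clusters and was higher in all 3, at 0.22 in cluster 0, 0.77 in cluster 6 and 0.53 in cluster 12, with 2 intervals above 0. With cluster 12 left out, a choice made after seeing the data, the log2 ratio of Egln3 was 0.28, that of Hif1a 0.51 and that of Hk3 -0.97. The macrophage and monocyte clusters were present in unequal shares. Cluster 12 held 0.57% of the class in Gel100 (21 cells) and 15.7% in Gel50_CS50 (552 cells), and cluster 1 held 31.7% and 4.53%. With the clusters weighted alike in both libraries, the log2 ratios were 0.41 for Egln3, 0.39 for Hif1a and -0.58 for Hk3, and 0 members were higher and 0 lower than 1.5-fold. The Hk3 ratio lay just inside 1.5-fold at these weights.

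**Figure D3:**
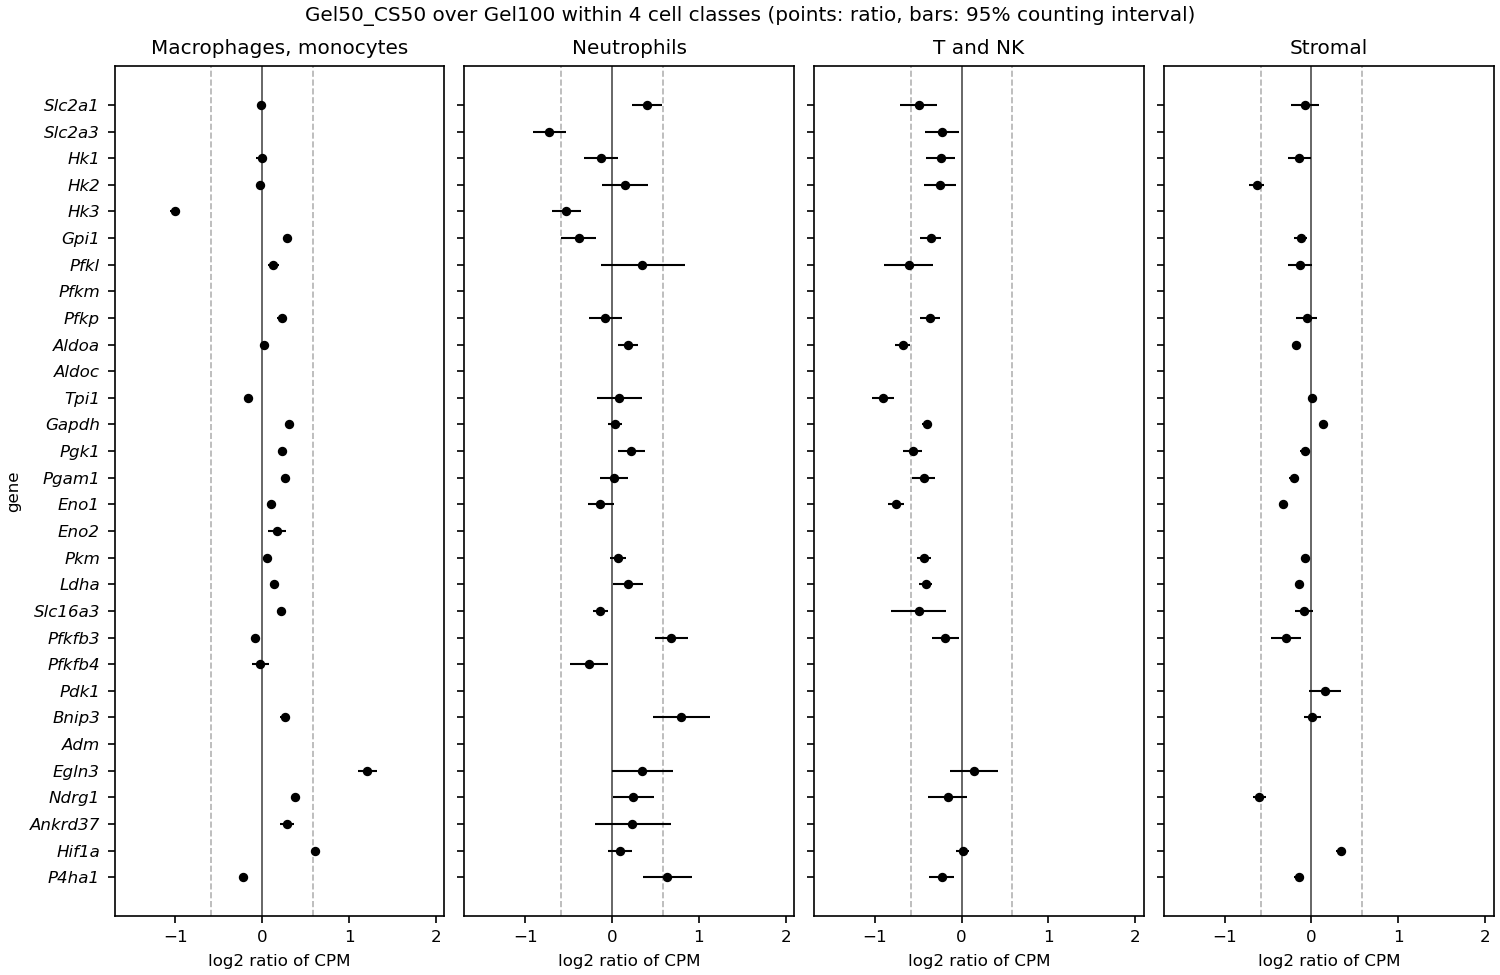
Log2 ratio of Gel50_CS50 over Gel100 for each measured member in 4 cell classes, with 95% intervals of counting error and dashed lines at 1.5-fold. In T and NK cells 19 of 21 points lie below 0, and in macrophages and monocytes Egln3 (1.21) and Hk3 (-1.01) stand farthest out.

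Cluster 12 had the highest level of most members among the macrophage and monocyte clusters of Gel50_CS50. Its leading genes were Stfa3, Arg1, Saa3 and Cxcl3, and it was singled out after its values were seen. Of 25 measured members, 20 were highest in cluster 12, and for 18 the interval was clear of every other cluster, beside 4.40% of 6063 genes. Against the other macrophage and monocyte clusters of the same library together, 20 of 26 measured members were over 1.5-fold higher (6.34% of all measured genes) and 0 were lower (8.73%). The median log2 ratio was 0.93 for the members and -0.08 for all genes. All 7 lower glycolysis and lactate genes were among the 20, with a median of 1.04. The 6 outside were Hk2, Hk3, Pfkfb3, Pfkfb4, Hif1a and P4ha1.

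Egln3 differed most, at 121.9 CPM in cluster 12 and 19.6 CPM in the others (6.22-fold), where single clusters ran from 8.48 to 36.2 CPM. Ankrd37, an ankyrin repeat gene known as a HIF target, was at 92.2 and 24.6 CPM (3.75-fold). The importer Slc2a1 was at 183 and 67.9 CPM (2.69-fold), and the lactate exporter Slc16a3 at 332 and 128 CPM (2.60-fold). Slc2a1 and Slc16a3 were thus both over 2-fold higher. The other glucose importer, Slc2a3, was near the floor and on the lower side (1.94 and 3.93 CPM). Bnip3, which encodes a mitophagy receptor, was at 202 and 80.5 CPM (2.51-fold). Eno1 (enolase) was at 768 and 347 CPM, Pgk1 (phosphoglycerate kinase) at 785.5 and 359 CPM, and Ldha (lactate dehydrogenase A) at 934 and 463.5 CPM. Hif1a itself was 1.41-fold higher (529 and 374 CPM), with its highest level in cluster 6 at 684 CPM. Hk3 was at 53.4 and 62.3 CPM, and its highest level was 131 CPM in cluster 1. Pfkfb3, which makes the main activator of phosphofructokinase, was at 107 and 102 CPM. The 21 cluster 12 cells of Gel100 had Egln3 at 84.5 CPM, where the whole class of that library had 16.6 CPM. They had Ankrd37 at 61.4 CPM, Bnip3 at 130.5 CPM and Slc16a3 at 387 CPM. These genes were picked as examples, and cluster 12 was not compared with the other clusters of Gel100.

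**Figure D4:**
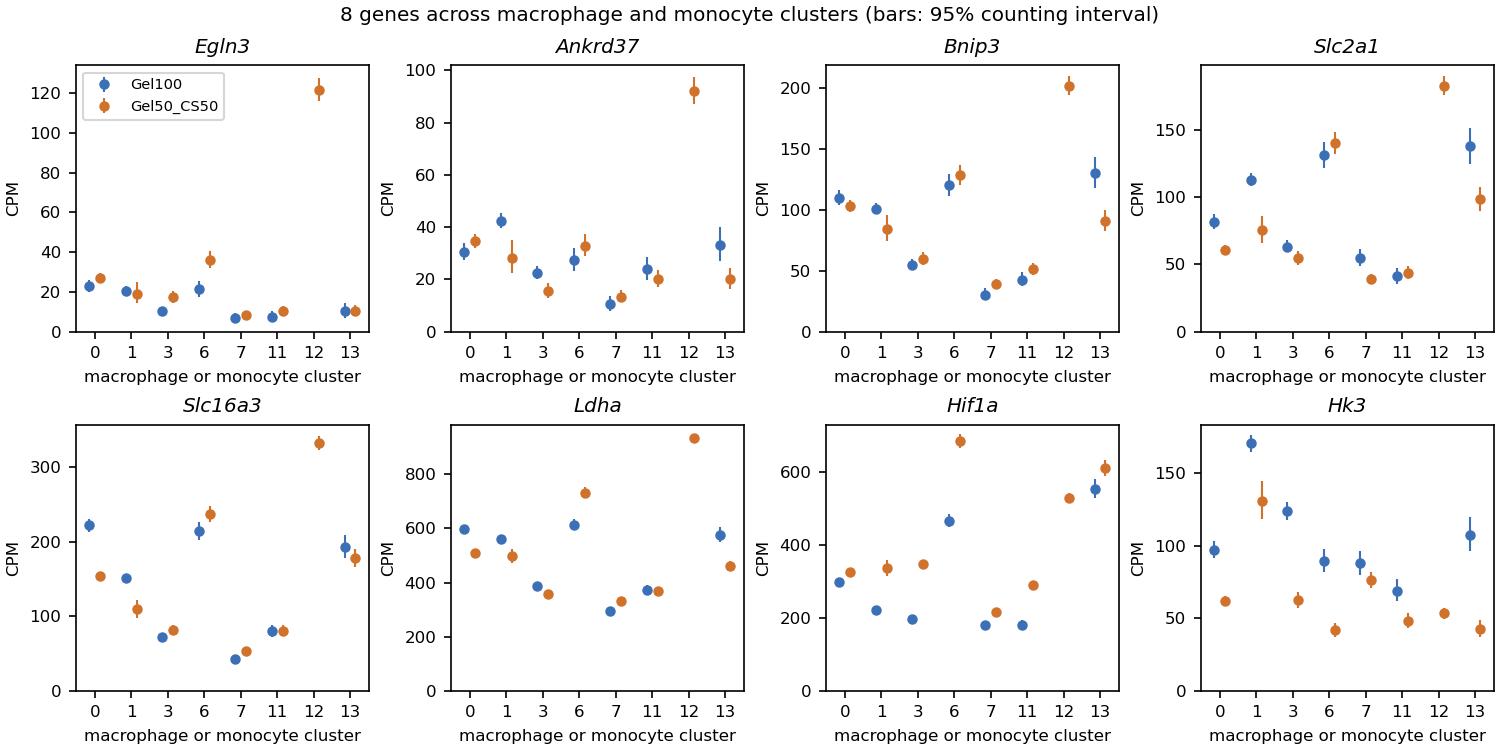
Level in CPM of 8 members in the macrophage and monocyte clusters of each library, with 95% intervals of counting error (the 21 cluster 12 cells of Gel100 are not drawn). Egln3 reaches 121.9 CPM in cluster 12 of Gel50_CS50, Hif1a is highest in cluster 6 (684 CPM), and Hk3 is highest in cluster 1.

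Cells of cluster 12 had the highest median depth of the class in Gel50_CS50, 22712.5 UMIs. The summed level of the 13 neutrophil markers was 843 CPM there (0 of 13 at 0) and between 211 and 555 CPM in the other clusters of that library. The 14 macrophage markers summed to 28829 CPM there (0 of 14 at 0) and to between 15135 and 51332 CPM in the others. The part of these values in the result was not tested. The other pathway lists in cluster 12 moved unevenly. Of 15 other HIF targets, 8 were higher and 1 was lower (median 0.67), among them Ero1l, an oxidase of the endoplasmic reticulum (83.3 and 252 CPM), and Gbe1, the glycogen branching enzyme (59.0 and 155 CPM), while Tfrc was lower (42.7 and 16.4 CPM). Of 7 measured genes of gluconeogenesis and glycogen, 5 were higher (median 1.05), and Gbe1, Gys1 and Pgm1 stand on both lists as drawn up. The pentose phosphate pathway had 1 of 6 higher (Pgd, 122 and 206 CPM). The tricarboxylic acid cycle had 0 of 13 higher and 1 lower, and of 16 oxidative phosphorylation genes none passed 1.5-fold.

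The promoters of the 5 measured members that stood farthest above the other clusters in cluster 12 are shown first, since HIF binds the core letters ACGTG or GCGTG, and that of Hk3, which did not stand above them, follows. Each runs 5' to 3' along the gene's own strand, from 250 bases before to 50 after the RefSeq start (GRCm38.p6), and capitals mark ACGTG on either strand, so the other strand's match reads as CACGT. The windows are chr12:54203825-54204124 (minus strand) for Egln3, chr8:45999801-46000100 (minus) for Ankrd37, chr4:119108495-119108794 (plus) for Slc2a1, chr11:120948817-120949116 (plus) for Slc16a3, chr7:138909457-138909756 (minus) for Bnip3 and chr13:55021336-55021635 (minus) for Hk3.
Egln3: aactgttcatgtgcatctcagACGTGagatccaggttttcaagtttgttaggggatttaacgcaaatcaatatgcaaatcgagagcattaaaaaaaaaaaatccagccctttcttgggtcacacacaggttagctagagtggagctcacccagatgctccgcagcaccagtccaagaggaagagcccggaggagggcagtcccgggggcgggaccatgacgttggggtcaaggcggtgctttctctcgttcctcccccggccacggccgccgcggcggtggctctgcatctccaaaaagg
Ankrd37: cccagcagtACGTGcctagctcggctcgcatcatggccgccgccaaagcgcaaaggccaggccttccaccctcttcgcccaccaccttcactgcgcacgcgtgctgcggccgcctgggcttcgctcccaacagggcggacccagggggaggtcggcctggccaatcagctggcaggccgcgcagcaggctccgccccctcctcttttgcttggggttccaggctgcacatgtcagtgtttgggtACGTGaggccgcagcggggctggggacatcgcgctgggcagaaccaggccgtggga
Slc2a1: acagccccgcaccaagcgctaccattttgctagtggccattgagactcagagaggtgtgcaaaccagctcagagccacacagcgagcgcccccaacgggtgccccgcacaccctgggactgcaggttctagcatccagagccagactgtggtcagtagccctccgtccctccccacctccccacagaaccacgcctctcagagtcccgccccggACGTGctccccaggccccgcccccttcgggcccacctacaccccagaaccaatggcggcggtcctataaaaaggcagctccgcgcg
Slc16a3: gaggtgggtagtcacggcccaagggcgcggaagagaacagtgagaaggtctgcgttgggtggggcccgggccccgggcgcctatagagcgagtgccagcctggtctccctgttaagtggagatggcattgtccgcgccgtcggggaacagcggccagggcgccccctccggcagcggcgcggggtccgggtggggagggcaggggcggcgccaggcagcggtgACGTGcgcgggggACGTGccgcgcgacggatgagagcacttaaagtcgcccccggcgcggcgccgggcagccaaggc
Bnip3: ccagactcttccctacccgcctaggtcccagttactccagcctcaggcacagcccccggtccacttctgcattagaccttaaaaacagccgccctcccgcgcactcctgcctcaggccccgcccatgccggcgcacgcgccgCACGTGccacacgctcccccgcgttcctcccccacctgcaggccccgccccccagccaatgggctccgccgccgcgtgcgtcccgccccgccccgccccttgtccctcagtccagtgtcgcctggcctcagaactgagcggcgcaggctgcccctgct
Hk3: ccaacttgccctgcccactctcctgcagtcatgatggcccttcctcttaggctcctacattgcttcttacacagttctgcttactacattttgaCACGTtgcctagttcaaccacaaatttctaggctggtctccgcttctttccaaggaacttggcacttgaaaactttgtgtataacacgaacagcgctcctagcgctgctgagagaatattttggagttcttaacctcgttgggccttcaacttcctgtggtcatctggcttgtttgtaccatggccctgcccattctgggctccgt

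Of the 30 members, 28 had at least 1 promoter in the RefSeq table, with 41 promoters in all, and Slc2a3 and Ndrg1 had no entry. ACGTG stood in at least 1 promoter of 19 of 28 members (67.9%), against 21.8% of all 27025 genes in that table. GCGTG stood in 17 of 28 (60.7%), against 35.2%. The median number of CG pairs per promoter was 22 for genes measured in macrophages and monocytes, 20 for members and 7 for all promoters. Among genes measured in macrophages and monocytes, ACGTG stood in 17 of 24 members (70.8%) and 31.4% of 4899 genes. GCGTG stood in 13 of 24 (54.2%) and 57.9%. Of the 6 shown, each held ACGTG, Hk3 included. Adm stood 3.55-fold higher in cluster 12 but at 1.79 and 0.50 CPM, under the minimum for measured members, and its promoter window held no ACGTG. A match describes letters in these windows and not bound factor.

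Levels of most glycolytic members followed the hypoxia genes across the macrophage and monocyte clusters. Over the 15 profiles of a cluster in a library, Pearson's r with the mean log2(CPM + 10) of 6 HIF targets (Egln3, Bnip3, Adm, Ndrg1, Ankrd37, P4ha1) was 0.95 for Ldha, 0.93 for Gapdh and Pgk1, 0.92 for Eno1 and 0.89 for Slc16a3. It was 0.51 for Eno2, 0.33 for Hk2, 0.28 for Pfkfb3, -0.07 for Hk3 and -0.49 for Slc2a3, which was near the floor. It was -0.51 for Pfkfb4, another regulator of phosphofructokinase. Outside every list, Fam162a (a mitochondrial protein, 0.95), Plekhm3 (0.91), Eif4ebp1 (a repressor of translation, 0.91), Pde8a (a phosphodiesterase, 0.90) and Ubash3b (0.87) were the most alike of 3400 genes. Pla2g4a, Prelid1, Rbpms, Ttc39b and Emp3 came next, at 0.85 to 0.87. Profiles of 1 library share its depth and its pool, so these values describe the profiles only. With the profile of cluster 12 left out, r was 0.94 for Ldha, 0.94 for Pgk1, 0.90 for Slc16a3 and 0.90 for Fam162a over 14 profiles. It was 0.83 for Eif4ebp1, 0.79 for Pde8a, 0.77 for Ubash3b, 0.74 for Pla2g4a and 0.71 for Emp3. Among members, Pgam1 went from 0.86 to 0.74 without that profile, Gpi1 from 0.80 to 0.60 and Eno2 from 0.51 to 0.24.

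T and NK cells of Gel50_CS50 had lower levels of most glycolytic members. Of 21 measured members, 19 were lower, 18 with an interval below 0, and 4 passed 1.5-fold (1.96% of all 6493 measured genes did), while 0 were higher (1.66%). Tpi1 was at 213.7 CPM in Gel100 and 114.2 CPM in Gel50_CS50 (log2 ratio -0.90, -1.03 to -0.78). Eno1 was at 365 and 217 CPM (-0.75), the aldolase Aldoa at 424.5 and 264.7 CPM (-0.68, -0.77 to -0.60), and Pfkl at 38.4 and 25.2 CPM (-0.61). Gapdh was the most abundant member and was at 944 and 713 CPM (-0.40). Over the class Hif1a was nearly level, at 392 and 395 CPM, and Egln3 was at 27.4 and 30.2 CPM. Hif1a was lower in 4 of the 5 clusters, 3 with an interval below 0, and higher in cluster 19. Clusters 19 and 21 held 9.42% and 6.93% of the class in Gel100 and 17.6% and 13.4% in Gel50_CS50. With the clusters weighted alike in both libraries, all 21 measured members were on the lower side, and 5 passed 1.5-fold. In the class as summed, the median was -0.40 for members and 0.005 for all genes. Of 14 tricarboxylic acid cycle genes and 16 oxidative phosphorylation genes none passed 1.5-fold, with medians of 0.02 and -0.01. Of 14 other HIF targets 1 did (Vegfa, the vascular growth factor, 56.6 and 29.9 CPM). In this class the 14 macrophage markers summed to 1123 CPM in Gel100 and 711 CPM in Gel50_CS50, the 13 neutrophil markers to 77.7 and 158 CPM and the 12 stromal markers to 294.5 and 411 CPM, none at 0, and their part in the result was not tested.

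NK-like cells had lower levels throughout. In cluster 8, led by Gzma, Gzmb and Ncr1 (492 and 213 cells), 19 of 19 measured members were lower and 8 passed 1.5-fold (2.61% of all genes), with a median of -0.54. Tpi1 there was at 213.8 and 105.4 CPM (-1.02), Aldoa at 423.5 and 231.6 CPM (-0.87), Pgk1 at 219 and 135 CPM (-0.70) and the pyruvate kinase Pkm at 392 and 244 CPM (-0.68). These enzymes span the route from triose phosphates to pyruvate. Pfkfb3 was nearly level, at 100.0 and 97.9 CPM. The 14 macrophage markers summed to 594 and 646 CPM in these cells and the 13 neutrophil markers to 69.1 and 97.4 CPM. In the alpha-beta T cell cluster 16, 5 of 18 were lower (6.23%), with a median of -0.42.

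Gamma-delta T-like cells were nearer to level. In cluster 19 (102 and 89 cells), 1 of 20 measured members was lower (7.69%), the median was -0.04, and Gapdh was at 462 and 541 CPM. Hif1a there was at 340 and 441 CPM. The difference between clusters 8 and 19 was not tested. In the Il2ra and Ctla4 cluster 21 (75 and 68 cells), which had the highest Hif1a level of any cluster with at least 50 cells (974.8 and 890.1 CPM) and high Egln3 (156 and 117 CPM), 7 of 22 were lower (11.2%), among them Hk2 (60.4 and 23.6 CPM) and Pfkfb3 (108 and 49.5 CPM). The 14 macrophage markers summed to 4622 CPM in its Gel100 and 639 CPM in its Gel50_CS50 cells, none at 0, and their part in the result was not tested. The low-count cluster 17 (208 and 29 cells) had 11 of 20 lower (7.68%). Without it, a choice made after seeing the data, 3 members of the class were lower and the median was -0.34.

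**Figure D5:**
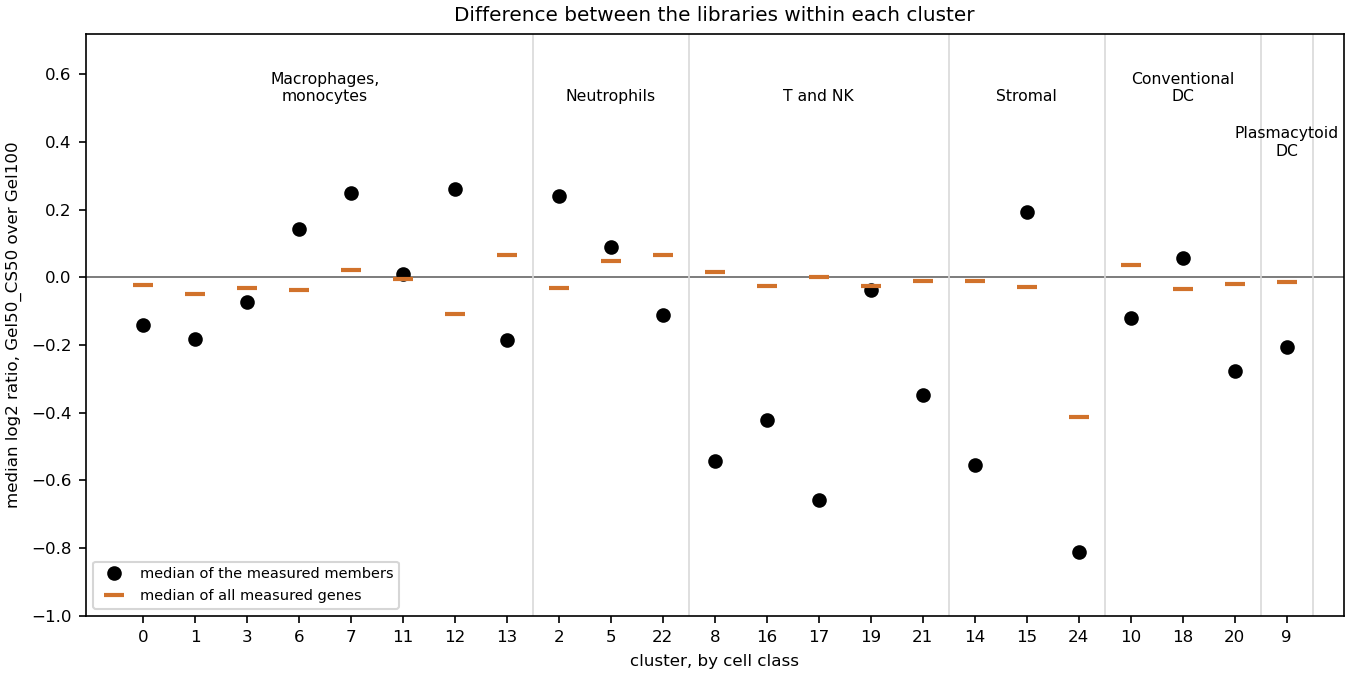
Median log2 ratio of Gel50_CS50 over Gel100 of the measured members in each cluster, beside the median of all measured genes of that cluster. The member median is -0.54 in NK-like cluster 8 and -0.55 in stromal cluster 14, and 0.19 in stromal cluster 15, and the low-count clusters 17 and 24 lie lowest.

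The 2 large stromal clusters differed between scaffolds in opposite directions, and the class as a whole differed little. Across stromal cells, 16 of 21 measured members were lower with a median of -0.12, and 2 passed 1.5-fold (2.52% of all genes), while 0 were higher (1.49%). These were Hk2 at 134.6 and 86.8 CPM (-0.63, -0.72 to -0.54) and Ndrg1, a stress-response gene, at 194.5 and 128.4 CPM (-0.60). P4ha1, the collagen prolyl hydroxylase subunit that was highest in these cells, was at 305 and 276 CPM. Hif1a was at 269 and 340 CPM (0.34).

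In cluster 14, led by Col1a2, Col1a1 and Mgp (111 and 345 cells), 19 of 20 measured members were lower and 9 passed 1.5-fold (3.93%), with a median of -0.55. Hk2 was at 95.7 and 45.1 CPM (-1.09), Bnip3 at 80.0 and 41.1 CPM (-0.96), Pfkl at 54.3 and 29.0 CPM (-0.91), Eno1 at 562 and 323 CPM (-0.80), and Slc16a3 at 88.0 and 53.6 CPM. The exception was Hif1a (251 and 284 CPM). Other HIF targets were lower there too, 8 of 16, with Vegfa at 79.4 and 30.6 CPM and Hmox1, the heme oxygenase, at 81.6 and 39.0 CPM. In cluster 15, led by Col3a1, Ebf1 and Dcn (111 and 310 cells), 18 of 24 were higher with a median of 0.19. There 1 passed 1.5-fold upward (2.53%) and 0 downward (2.77%). That was Adm, the vasodilator peptide adrenomedullin, at 12.6 and 35.8 CPM (log2 ratio 1.5). Bnip3 was at 103 and 148 CPM, Gapdh at 894 and 1242 CPM, and Ndrg1 at 300.2 and 202.5 CPM. Macrophage markers summed to 753 and 831 CPM in cluster 14 and to 641 and 1145 CPM in cluster 15, none at 0, and their part in the result was not tested.

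For the members as a set, the median ratio of cluster 15 over cluster 14 was therefore higher in Gel50_CS50. In Gel100, 4 of 23 measured members were over 1.5-fold higher in cluster 15 than in cluster 14 (12.1% of all genes). There 13 of the 23 were on the higher side, with a median log2 ratio of 0.15. Abundant enzymes were on the lower side in Gel100, among them Gapdh (-0.20), Eno1 (-0.21) and Ldha (-0.17). In Gel50_CS50 these had changed side (0.55, 0.65 and 0.64). In Gel50_CS50, 16 of 22 were (11.8%), all 22 were on the higher side, and the median was 0.65. Bnip3 was at 41.1 CPM in cluster 14 and 148 CPM in cluster 15 of that library (log2 ratio 1.84, and 0.36 in Gel100). Hk2 was at 45.1 and 131 CPM (1.53, and 0.82 in Gel100). Not every member had a higher ratio in Gel50_CS50. Ndrg1 had log2 ratios of 2.11 in Gel100 and 1.82 in Gel50_CS50, and the low members Eno2 (1.13 and 0.93) and Pfkfb4 (1.46 and 0.79) also narrowed. The difference of these differences was not tested.

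Most counts of Adm came from the stromal class, which held 154 of its 200 counts in Gel100 (77.0%) and 927 of 1023 in Gel50_CS50 (90.6%). Its class level was 13.8 and 24.3 CPM, and T and NK cells and plasmacytoid dendritic cells had 0 counts in both libraries. The few endothelial cells had 21.7 CPM (12 counts) in Gel100, the highest class level of that library, and 3.37 CPM (4 counts) in Gel50_CS50. Its mean of under 20 CPM kept it out of the measured members of the class. In Gel50_CS50 it was at 35.8 CPM in cluster 15 and at 13.6 CPM in cluster 14.

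Neutrophils showed 3 members higher (6.63% of all 3995 genes) and 1 lower (11.7%) of 25 measured. Bnip3 was at 35.4 and 61.6 CPM (0.80, 0.47 to 1.13), Pfkfb3 at 104.9 and 167.9 CPM (0.68, 0.49 to 0.87) and P4ha1 at 49.0 and 76.0 CPM (0.63, 0.36 to 0.92). Slc2a3 was the lower one, at 143.6 and 87.1 CPM (-0.72, -0.91 to -0.53). It was concentrated in cluster 22, which expressed the granule genes Ngp, Camp and Ltf, with 480 CPM in Gel100 and 407 CPM in Gel50_CS50, against 48.5 and 47.5 CPM in cluster 2. Cluster 22 was 10.3% of Gel100 and 3.41% of Gel50_CS50 neutrophils. Without it, a choice made after seeing the data, the log2 ratio of Slc2a3 was -0.09. Then 2 of 25 members were higher (8.37% of all genes) and 0 lower (11.2%). The 2 were Pfkfb3 and Bnip3, and P4ha1 no longer passed 1.5-fold. Pfkfb3 was higher in cluster 2 (90.8 and 199 CPM), where 5 of 25 members were higher (12.5%) and 2 lower (18.9%). The lactate exporter Slc16a3 was highest in cluster 5, at 672 and 633 CPM. The stromal markers summed to 159 and 473 CPM in cluster 2, and their part in the result was not tested.

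Among dendritic cells, the conventional class had 0 of 23 measured members higher (2.70%) and 2 lower (3.50%). Hk3 was at 36.2 and 16.5 CPM (-1.13, -1.40 to -0.87), the same side as in macrophages and monocytes, and Ankrd37 was at 26.6 and 17.4 CPM (-0.61). The summed level of the 14 macrophage markers in this class was 5353 and 7756 CPM, and their part in the result was not tested. Hif1a was at 168 and 240.4 CPM (0.52, 0.42 to 0.61). Pfkfb3 was highest of any cluster with at least 50 cells in the Ccr7 cluster 18, at 566 and 457 CPM, and Pfkp in cluster 20, at 642 and 395 CPM. In cluster 20, 6 of 18 members were lower (7.84%), and in cluster 18, 3 of 20 were higher (5.33%), Slc2a1, Hk2 and Slc16a3.

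Plasmacytoid dendritic cells, the class with the least of these transcripts, had 3 of 16 measured members lower (1.31%) and 0 higher (1.60%). These were Eno1 at 88.4 and 49.8 CPM (-0.83, -1.05 to -0.61), Pkm at 187 and 115 CPM (-0.70) and Aldoa at 191.6 and 124 CPM (-0.63). Slc2a1 was at 68.1 and 92.6 CPM and Hif1a at 199 and 245 CPM, so neither followed the enzymes. In this class the macrophage markers summed to 633 and 609 CPM, the neutrophil markers to 202 and 514 CPM and the stromal markers to 54.2 and 164 CPM, none at 0, and their part in the result was not tested. Endothelial cells were few, 61 and 52, with median counts of 1972 and 18757 UMIs. Of 17 measured members, 5 were lower (14.5%) and 1 higher (9.47%) there, with Tpi1 at 139 and 66.5 CPM and the Pfkp level at 56.0 and 94.3 CPM. Of the Gel100 endothelial cells, 22 of 61 (36.1%) lay in the low-count cluster 29, which held 0 Gel50_CS50 cells. The stromal markers summed to 2807 and 5380 CPM and the macrophage markers to 1039 and 1865 CPM in this class, none at 0. The part of the depth, of cluster 29 and of these markers in the endothelial values was not tested.

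Hif1a was on the higher side in Gel50_CS50 in macrophages and monocytes, stromal cells and both dendritic cell classes. It was nearly level in neutrophils (220.3 and 234 CPM, log2 ratio 0.09, -0.05 to 0.23). In T and NK cells it was nearly level over the class but lower in 4 of 5 clusters. The few endothelial cells had 318 and 282 CPM. In the unnamed cluster 23 (53 and 56 cells) no marker class led clearly, with scores of 4.13 for mast cells or basophils and 3.89 for osteoclasts. There 10 of 17 measured members were higher in Gel50_CS50 (9.92% of all genes) and 1 was lower (21.2%). Its leading genes included Cma1 and Cpa3 beside Ctsk and Acp5, and the part of a mix of cells in this result was not tested. Low members remain. Pdk1, which restrains pyruvate entry into mitochondria, reached 26.3 and 29.3 CPM in stromal cells, Eno2 (the neuronal enolase) 21.1 and 23.8 CPM in macrophages and monocytes, and Aldoc at most 7.74 CPM in any macrophage or monocyte cluster. Counts on 1 further Aldoa identifier (7 and 15) were left out. Eno1b, a near copy of Eno1, had 1121 and 1550 counts of its own, and how shared reads were assigned is not stated, so the Eno1 level is uncertain to that extent.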

How the data were processed

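Single-cell RNA of 2 libraries was analysed, 1 per scaffold. The deposited matrices hold whole-number UMI counts per gene and barcode, not normalized, and the writing program was Cell Ranger 6.0.2, per the file headers, and mm10 is named as the genome build per the submitters' processing notes. No source used here gives the annotation release, and gene positions were taken from GENCODE vM21. There were 7845 Gel100 barcodes with 108847835 UMIs in all and 7515 Gel50_CS50 barcodes with 150311308.

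A barcode needed 200 genes, 500 UMIs and a mitochondrial share under 20%, and 65 and 117 failed. Scrublet in scanpy 1.11.5 (expected rate 0.06) called 179 and 192 doublets, and these were removed. Clustering used 3000 variable genes without the 154 genes of the pathway lists and without mitochondrial genes, 30 principal components, 15 neighbours and Leiden clustering (leidenalg 0.10.2, resolution 1.0) of the joint, unintegrated libraries. A cluster took the class with the highest marker score and stayed unnamed under a score of 1.5, a lead of 0.5, 3 detected markers or a median of 1000 UMIs. Macrophage and monocyte clusters formed one class, as did those of NK and T cells of all kinds. Counts were summed per class or cluster and library and scaled to 1000000. Ratios are log2 of Gel50_CS50 over Gel100, with exact intervals from the conditional binomial, and shares have exact Clopper-Pearson intervals. The ratio script was checked on simulated counts.

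The members, pathway lists and alternatives were chosen with earlier results of these data known. Named were all members past 1.5-fold with an interval clear of 0, the most abundant member of a role, the most extreme genes of each other list, and the 10 genes most like the 6 HIF targets. Other members are given to show a pattern. Cell classes under 50 cells in a library were not compared. Sums and intervals used pandas 2.3.3, numpy 2.4.6 and scipy 1.17.1 under Python 3.11.15, and plots matplotlib 3.10.9.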

Additional observations from a re-analysis of the deposited data

How the results depend on the processing

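With 1 library per scaffold, the counts of members past 1.5-fold moved with several choices, and the cause was not tested. In macrophages and monocytes 2 were higher and 1 was lower. Percentages here and below are the shares of all genes at the same setting. A minimum of 100 CPM gave 1 higher (2.62%) and 0 lower (7.28%), and no minimum gave 4 of 30 higher (13.3%). Equal weight per cell gave 1 higher (2.49%), and equal cluster weights 0 higher (0.849%) and 0 lower (1.44%). An interval wholly beyond 1.5-fold gave 1 higher (2.08%). Leaving out cluster 12 (chosen after seeing the data) gave 0 higher (2.35%). The median of 0.13 became 0.19 with no minimum, 0.073 after thinning each cell to 3000 UMIs, -0.015 at equal cluster weights and -0.10 without cluster 12. In neutrophils 3 were higher and 1 was lower. The minimum of 100 CPM gave 1 higher (7.82%), and no minimum gave 5 of 27 higher (17.4%). Keeping called doublets gave 1 higher (7.69%) and 2 lower (8.49%), and the interval rule 0 higher (3.53%) and 0 lower (5.61%). Equal cluster weights gave 0 lower (9.27%), and leaving out cluster 22 (also chosen later) 0 lower (11.2%). In T and NK cells 0 were higher and 4 lower. No minimum gave 1 of 29 higher (9.26%) and 9 lower (9.1%), and keeping doublets gave 2 lower (2.24%). In stromal cells 0 were higher and 2 lower. No minimum gave 2 of 30 higher (11.2%) and 4 lower (8.98%). Equal weight per cell gave 1 lower (6.68%), Pfkfb3, with neither Hk2 nor Ndrg1. Centring on the median of all genes gave 1 lower (2.31%), Hk2. Equal cluster weights gave 0 lower (2.29%), and the interval rule 0 lower (1.7%). Of 644 alternative values of single members, 501 stayed within their counting interval and 143 moved beyond it, and 0 members past 1.5-fold changed sign. Thinning left out 307 and 38 macrophages and monocytes and 201 and 16 T and NK cells, a difference in depth that limits the low members. No paired analysis was possible because each scaffold has 1 library.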
